A study of Mus musculus with 6 samples.

Results

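The extracellular proteases and their inhibitors described here are the matrix metalloproteinases (Mmp), the ADAM and ADAMTS proteases, the ADAMTS-like proteins (Adamtsl) and the tissue inhibitors of metalloproteinases (Timp), measured in lungs of mice given IL-13. They were taken by symbol: every probe set whose platform gene symbol starts with Mmp, Timp, Adam, Adamts or Adamtsl followed by a digit. This gave 129 of the 45037 probe sets that are not array controls. Of these, 124 belonged to 1 gene each and covered 70 genes, with 18 Mmp, 4 Timp, 28 Adam, 15 Adamts and 5 Adamtsl genes. The other 5 were assigned to several genes by the platform (4 to Adam1a and Mapkapk5, 1 to Adam6a and Adam6b) and were counted without being given to a gene. The rule uses no measured value.

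Whole lung RNA of adult BALB/c mice was hybridised to 6 Affymetrix mouse 430 2.0 arrays. IL4R KO + SMP8-IL4R mice lacked the receptor (il4r -/-) and carried a transgene (+/-) in which SMP8, a promoter described in the deposited design as smooth-muscle-specific, drives the receptor. IL4R KO mice lacked the receptor (il4r -/-) and had no transgene, and WT mice were il4r +/+. Each group had 2 arrays, and each array held RNA pooled from 4 mice. Every mouse was dosed in the trachea once a day with 2 to 3 µg of IL-13, whose receptor contains the IL-4 receptor alpha chain, over 7 days, and lungs were collected 24 hours later. No untreated lung was analysed here, so every difference is between genotypes under IL-13. The deposited design asked which transcripts depend on receptor expression in smooth muscle cells.

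Metalloproteinases of these families are zinc enzymes that are made as inactive precursors. MMPs cut collagens, elastin, proteoglycans and cytokines outside the cell, ADAMs sit in the membrane and release the outer parts of growth factors, cytokines and receptors, and ADAMTS proteases are secreted and act mainly on proteoglycans, procollagen and other matrix proteins. TIMPs bind and block the active sites. In mouse lung, macrophage elastase (MMP12) is the best known of them for its part in emphysema after smoke or IL-13 exposure.

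Values are log2 RMA signals, so a difference of 1 is a 2-fold change, and levels of different probe sets cannot be ranked against each other. A probe set passed in a comparison if its Benjamini-Hochberg adjusted p in limma was under 0.05, over all 45037 probe sets. Array medians lay between 7.08 and 7.11 and correlations between arrays between 0.9892 and 0.9978. The lung epithelial markers Sftpc, Scgb1a1 and Ager were near the top of the scale on all arrays (14.29 to 14.76), as labelled. Liver transcripts stood apart in IL4R KO pool 1 and WT pool 2, where the summed signal of 6 hepatocyte markers was 14320 and 10250, against 1419 to 1880 on the other 4 arrays. The Y-linked Eif2s3y was 4.27 in IL4R KO pool 2 and 8.49 to 9.18 elsewhere, and the Y-linked Kdm5d and Uty were also lowest there (3.34 and 3.56). Xist was 7.93 in IL4R KO pool 1 and 10.08 to 11.40 elsewhere. The IL4R KO pools thus differed from each other in sex-linked transcripts. Neutrophil markers were high in IL4R KO + SMP8-IL4R pool 1 and IL4R KO pool 1. Spread between the pools of a group was uneven: over 2-fold gaps between pools were seen for 4 family probe sets of the transgenic group, 3 of IL4R KO and 0 of WT. Over all 45037 probe sets, such gaps numbered 66, 328 and 116, so there the transgenic group had the fewest. Il4ra itself did not check the labels, since its 3 probe sets differed by at most 0.46 between any groups and none passed.

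**Figure D1:**
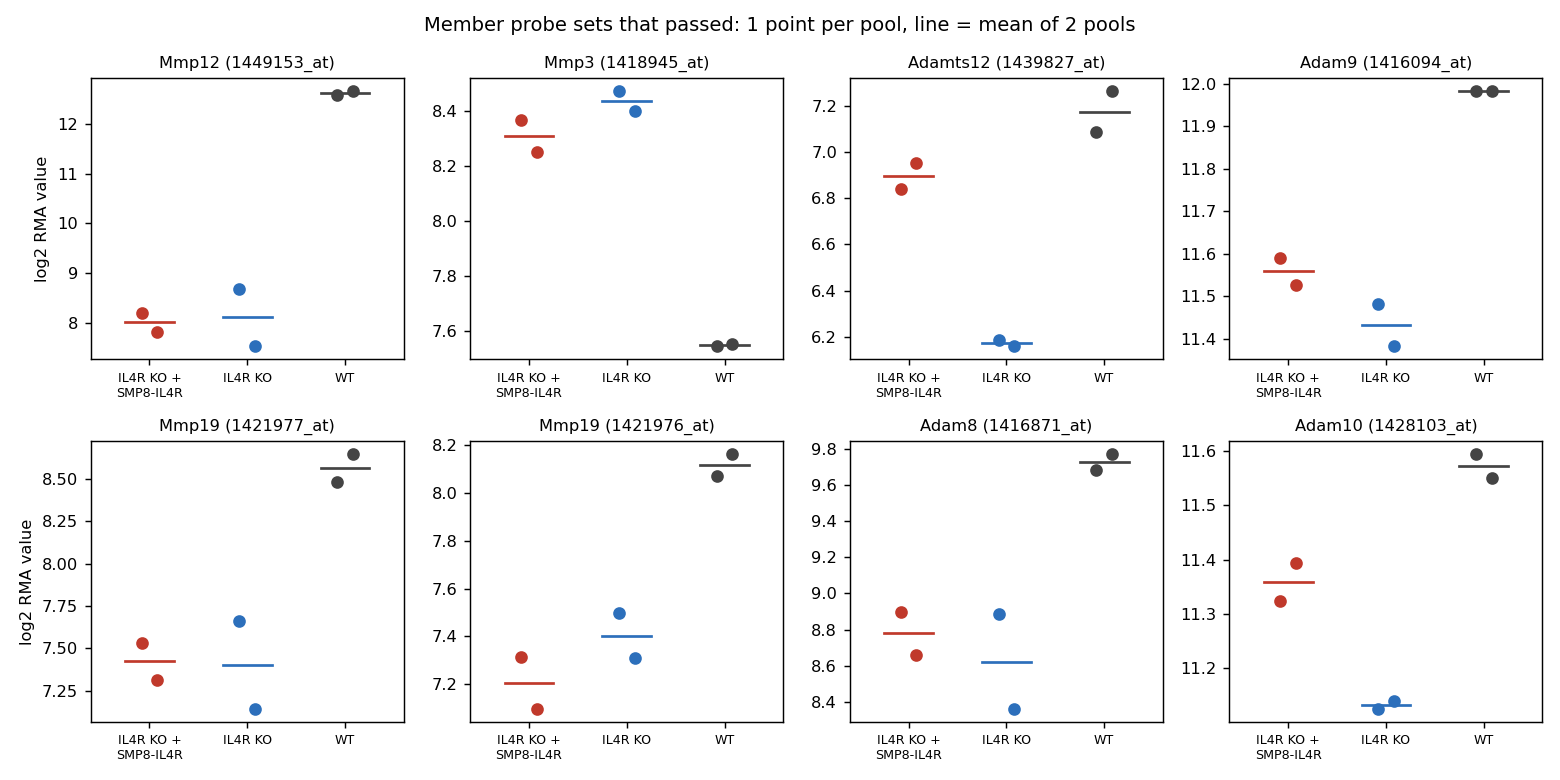
Log2 RMA values of the 8 probe sets that passed in a comparison, 1 panel each with its own axis. Points are pools of 4 mice and lines are means of 2 pools, with IL4R KO + SMP8-IL4R, IL4R KO and WT in order from the left. Mmp12 sits between 7.54 and 8.69 in the 4 il4r -/- pools, with or without the transgene, and at 12.57 and 12.65 in WT. Mmp3 is the panel in which WT is the lowest group.

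Against WT, IL4R KO lungs had lower signal for macrophage elastase Mmp12, Mmp19, the sheddases Adam8, Adam9 and Adam10 and the secreted protease Adamts12, and higher signal for the stromelysin Mmp3. Mmp12 and Mmp19 of IL4R KO + SMP8-IL4R lungs were again lower than in WT and Mmp3 higher. No family probe set passed between IL4R KO + SMP8-IL4R and IL4R KO. TIMPs, gelatinases, membrane-type MMPs and the ADAMTS proteoglycanases had no passing probe set in any comparison.

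In IL4R KO against WT, 8 of 129 family probe sets passed (6.20%), of 7 genes, where 1.58% of all probe sets passed. Of these, 1 was higher, where 0.577% of all probe sets were, and 7 were lower, where 0.999% of all were. At an unadjusted p under 0.05, 34 family probe sets (26.4%) differed, against 16.0% of all. The pools of the groups did not overlap for 67 of 129 family probe sets (51.9%), against 45.8% of all, so non-overlap alone is close to the background. Between IL4R KO + SMP8-IL4R and IL4R KO, 0 of 129 passed, where 0.0155% of all did. At an unadjusted p under 0.05 there were 15 (11.6%), close to the 11.3% of all probe sets, and pools did not overlap for 56 (43.4%), against 42.1% of all. Against WT, 4 of 129 passed in the transgenic lungs (3.10%), where 1.04% of all did, 1 higher and 3 lower, where 0.273% and 0.770% of all were. There, 31 had an unadjusted p under 0.05 (24.0%, against 15.3% of all) and 73 did not overlap (56.6%, against 54.7%). These 4 also passed in IL4R KO against WT. The 2 comparisons share their WT arrays and so are not independent of each other. The typical family probe set moved little: the median absolute difference in IL4R KO against WT was 0.12, against 0.10 over all probe sets. With sign kept, the medians were -0.03 and -0.0006. Differences over 2-fold were seen for 7 family probe sets (5.43%), against 0.762% of all.

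**Figure D2:**
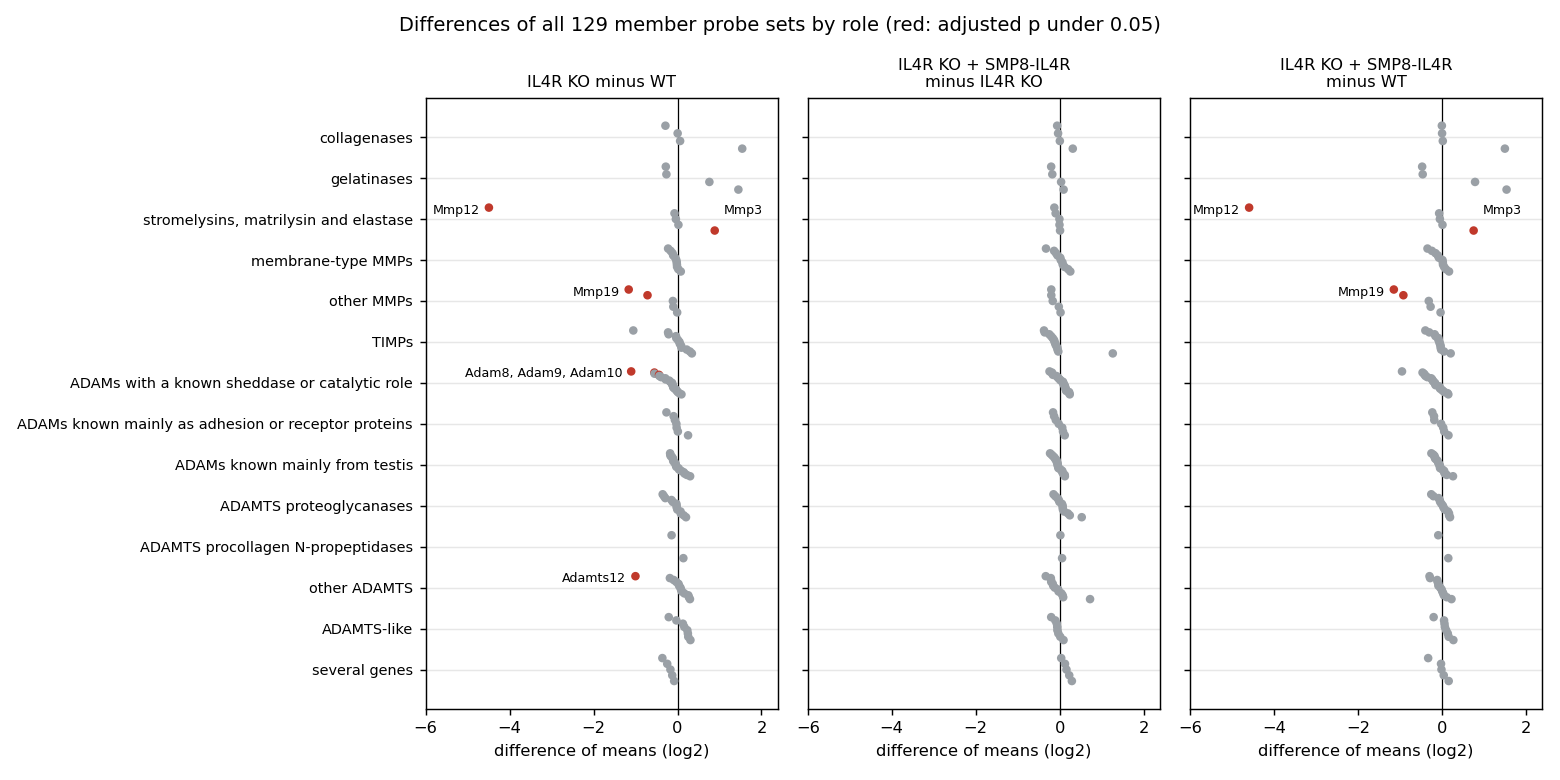
Differences of group means (log2) of the 129 family probe sets, by protein role, in the 3 comparisons. Points in red passed at an adjusted p under 0.05. The passing points lie in 4 roles, and Mmp12 stands furthest from 0 at -4.49 for IL4R KO minus WT.

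Mmp12 had log2 values of 8.21 and 7.83 in IL4R KO + SMP8-IL4R lungs, 8.69 and 7.54 in IL4R KO lungs, and 12.57 and 12.65 in WT lungs. The WT pools lay close together, far above all 4 il4r -/- pools, with or without the transgene. In IL4R KO against WT, Mmp12 fell by 4.49 ± 0.34 (SE, 22.5-fold lower, adjusted p = 0.00230). It was the 11th largest difference of the 45037 probe sets. Against WT, the transgenic lungs fell by 4.59 ± 0.34 (24.1-fold lower, adjusted p = 0.00224). Between IL4R KO + SMP8-IL4R and IL4R KO, the difference was -0.10 (95% interval -0.90 to 0.71, adjusted p = 0.935). Mmp12 also passed in every one of the 14 alternative analyses of both comparisons with WT, with differences between -5.07 and -3.92 for IL4R KO.

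Macrophage markers moved in both directions beside it. Of 11 listed macrophage markers, 2 were higher in IL4R KO than in WT (Fcgr1 and Marco, by 1.17 and 0.50) and 2 were lower (Itgax and Mrc1, differences -1.64 and -0.69), with Benjamini-Hochberg adjusted p from limma of at most 0.047. Their summed signal was 31850 and 29750 in IL4R KO + SMP8-IL4R, 32240 and 31060 in IL4R KO, and 32240 and 33250 in WT, and none of the 11 was below the lower quartile of all values on all arrays. Lyz2, with the highest signal of the 11, weighs most in these linear sums, which therefore say little of the other markers. Lyz2 was 14.31 and 14.27 in IL4R KO + SMP8-IL4R, 14.30 and 14.28 in IL4R KO, and 13.99 and 14.01 in WT. The part of macrophages in the Mmp12 difference was not tested. In whole lung RNA, fewer cells of a type and less RNA per cell cannot be told apart.

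Mmp3, which encodes stromelysin, a protease that cuts proteoglycans, laminin and fibronectin and activates other proMMPs, went the other way. Its values were 8.37 and 8.25 in IL4R KO + SMP8-IL4R lungs, 8.47 and 8.40 in IL4R KO lungs, and 7.54 and 7.55 in WT lungs. Both WT pools were below all the others. Mmp3 rose by 0.89 ± 0.08 in IL4R KO against WT (SE, 1.85-fold, adjusted p = 0.00444) and by 0.76 ± 0.08 in IL4R KO + SMP8-IL4R against WT (1.69-fold, adjusted p = 0.0102). The difference between IL4R KO + SMP8-IL4R and IL4R KO was -0.13 (95% interval -0.31 to 0.06). The call in IL4R KO against WT was lost without WT pool 1 (difference 0.88, adjusted p = 0.0694) and without WT pool 2 (0.89, adjusted p = 0.0652). The transgenic call against WT was lost when any 1 of the transgenic or WT pools was left out (0.70 to 0.82, adjusted p 0.0708 to 0.128). Fibroblasts are a common source of stromelysin, and of 7 fibroblast markers 1 was higher in IL4R KO than in WT (Dcn) and 3 were lower (Col1a1, Col3a1 and Col14a1). Summed fibroblast signal was 23040 and 23560 in IL4R KO + SMP8-IL4R, 22090 and 22090 in IL4R KO, and 26810 and 27350 in WT. Col3a1, with the highest signal of the 7, weighs most in this linear sum. Mean log2 values of the 7 were 10.86 and 10.93, 10.87 and 10.99, and 10.93 and 11.02 in the same order. The adipocyte sum came from 3 measured markers of 5, with Lep below the lower quartile on all arrays. It was 611.3 and 617.4 in IL4R KO + SMP8-IL4R, 1380 and 1554 in IL4R KO, and 400.8 and 465.8 in WT. The cardiac muscle sum was 9623 and 10760, 16100 and 13420, and 8809 and 8051 in the same order. The part of these cell types in the Mmp3 result was not tested.

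Mmp12 and Mmp3 lie in the MMP cluster of mouse chromosome 9, which held 9 genes with a probe set here. Their RefSeq promoters (GRCm38.p6, the 250 bases before the start, plus strand) are shown because they are the passing genes of the family in which a searched motif was found. Mmp12 has 2 annotated starts. Capitals mark matches to the AP-1 motif TGANTCA and to the TATA box TATAAA, searched on both strands.
Mmp12, first start, chr9:7344147-7344396: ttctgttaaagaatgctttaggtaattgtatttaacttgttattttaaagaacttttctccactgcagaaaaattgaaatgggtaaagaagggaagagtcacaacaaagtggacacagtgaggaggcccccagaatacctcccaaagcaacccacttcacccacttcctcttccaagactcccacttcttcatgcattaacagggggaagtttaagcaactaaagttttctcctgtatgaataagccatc
Mmp12, second start, chr9:7347124-7347373: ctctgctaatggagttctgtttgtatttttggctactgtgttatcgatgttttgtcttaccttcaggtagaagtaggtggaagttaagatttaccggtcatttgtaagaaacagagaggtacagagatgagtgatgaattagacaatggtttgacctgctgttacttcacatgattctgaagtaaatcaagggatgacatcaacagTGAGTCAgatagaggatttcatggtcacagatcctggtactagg
Mmp3, chr9:7445572-7445821: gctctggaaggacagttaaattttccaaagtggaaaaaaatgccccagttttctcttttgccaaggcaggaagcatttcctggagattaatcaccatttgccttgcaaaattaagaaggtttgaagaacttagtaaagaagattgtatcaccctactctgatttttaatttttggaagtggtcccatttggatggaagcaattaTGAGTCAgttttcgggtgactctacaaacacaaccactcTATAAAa

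TGAGTCA lay 44 to 38 bases before the second Mmp12 start and 46 to 40 bases before the Mmp3 start, and TATAAA lay 7 to 2 bases before the Mmp3 start. Of the 46 promoters found for 41 family genes, 10 held TGANTCA (21.7%), against 6.75% of 32851 promoters of the same length in RefSeq. Of the 9 cluster genes, 8 held it, and of the 32 other family genes with a promoter, 2 did. Of those 10 genes, Mmp12 and Mmp3 passed and the others did not. The STAT6 motif (TTC and GAA with 4 bases between) was in 2 family promoters (4.35%), against 5.85% of all, and in 0 of the 6 promoters of passing genes. The shorter STAT motif TTCNNNGAA was in 2 (4.35%), against 7.02%, and also in 0 of 6. TATAAA was in 11 family promoters (23.9%), against 12.4% of all, and in 1 of the 6 promoters of passing genes. A match is a run of letters, and its absence from this window bears on nothing else. Adam9 and Mmp19 had no entry.

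**Figure D3:**
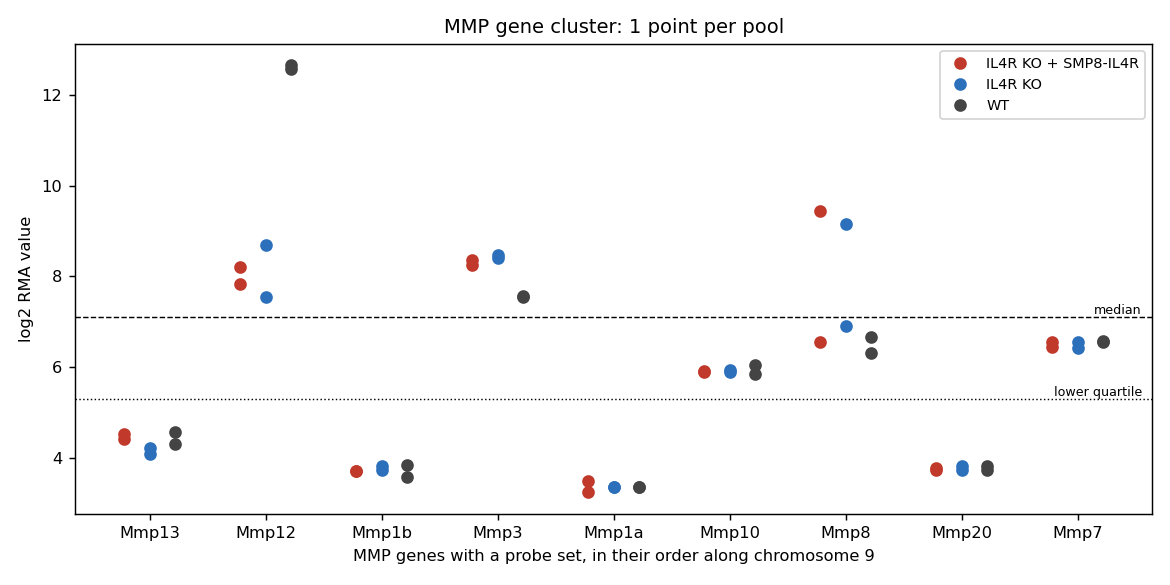
Log2 RMA values of the 9 MMP genes of the chromosome 9 cluster in their order along the chromosome, 1 point per pool, with IL4R KO + SMP8-IL4R, IL4R KO and WT from left to right in each gene. Dashed and dotted lines mark the median (7.10) and lower quartile (5.30) of all values. Mmp12 falls and Mmp3 rises against WT, Mmp8 is split between pools, and Mmp13, Mmp1a, Mmp1b and Mmp20 lie below the lower quartile.

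The other cluster genes were dim or did not pass. Mmp13, Mmp1a, Mmp1b and Mmp20 were under the lower quartile on every array. Stromelysin Mmp10 and matrilysin Mmp7 differed by -0.04 and -0.07 between IL4R KO and WT, with adjusted p of 0.865 and 0.727 in limma. Mmp8, neutrophil collagenase, was 9.44 and 6.54 in IL4R KO + SMP8-IL4R, 9.16 and 6.90 in IL4R KO, and 6.31 and 6.66 in WT. Only 1 pool of each il4r -/- group was far above the WT pools. The difference of 1.54 ± 1.01 between IL4R KO and WT did not pass (adjusted p = 0.504), nor did IL4R KO + SMP8-IL4R against WT (2.84-fold higher, adjusted p = 0.526).

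Of the gelatinases, Mmp9, stored in neutrophil granules and made by macrophages, was 9.42 and 8.20 in IL4R KO + SMP8-IL4R, 8.94 and 8.61 in IL4R KO, and 8.05 and 7.98 in WT by its brighter probe set. The dimmer one was 9.34 and 7.41 in IL4R KO + SMP8-IL4R, 8.53 and 8.02 in IL4R KO, and 6.72 and 6.94 in WT. All il4r -/- pools, with or without the transgene, lay above both WT pools, by amounts that differed between pools. None of the differences from WT passed: 0.76 ± 0.35 and 1.45 ± 0.55 in IL4R KO (adjusted p = 0.354 and 0.272), and 0.79 ± 0.35 and 1.54 ± 0.55 in IL4R KO + SMP8-IL4R (0.350 and 0.264). Without IL4R KO + SMP8-IL4R pool 2, the dimmer probe set's transgenic difference was 2.51 and passed (adjusted p = 0.0290). Signal of neutrophil markers was highest in IL4R KO + SMP8-IL4R pool 1 and IL4R KO pool 1. Sums over 7 markers were 28250 and 6389 in IL4R KO + SMP8-IL4R, 16560 and 8227 in IL4R KO, and 5133 and 6202 in WT. IL4R KO + SMP8-IL4R pool 2 was thus near WT pool 2 in this sum, though its Mmp9 lay above both WT pools. None of the 7 markers was below the lower quartile on all arrays, and 1, Ltf, passed in IL4R KO against WT. The part of neutrophils in the Mmp8 and Mmp9 values was not tested. Mmp2, the gelatinase of stromal cells, was 11.07 and 11.23 in IL4R KO + SMP8-IL4R, 11.33 and 11.37 in IL4R KO, and 11.58 and 11.66 in WT. The 3 groups did not overlap, with the transgenic lungs lowest. The differences were -0.26 ± 0.09 in IL4R KO against WT (adjusted p = 0.217) and -0.47 ± 0.09 in IL4R KO + SMP8-IL4R against WT (adjusted p = 0.0769). The last passed in 2 of 14 alternatives (adjusted p = 0.0206 with an intensity trend and robust prior).

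**Figure D4:**
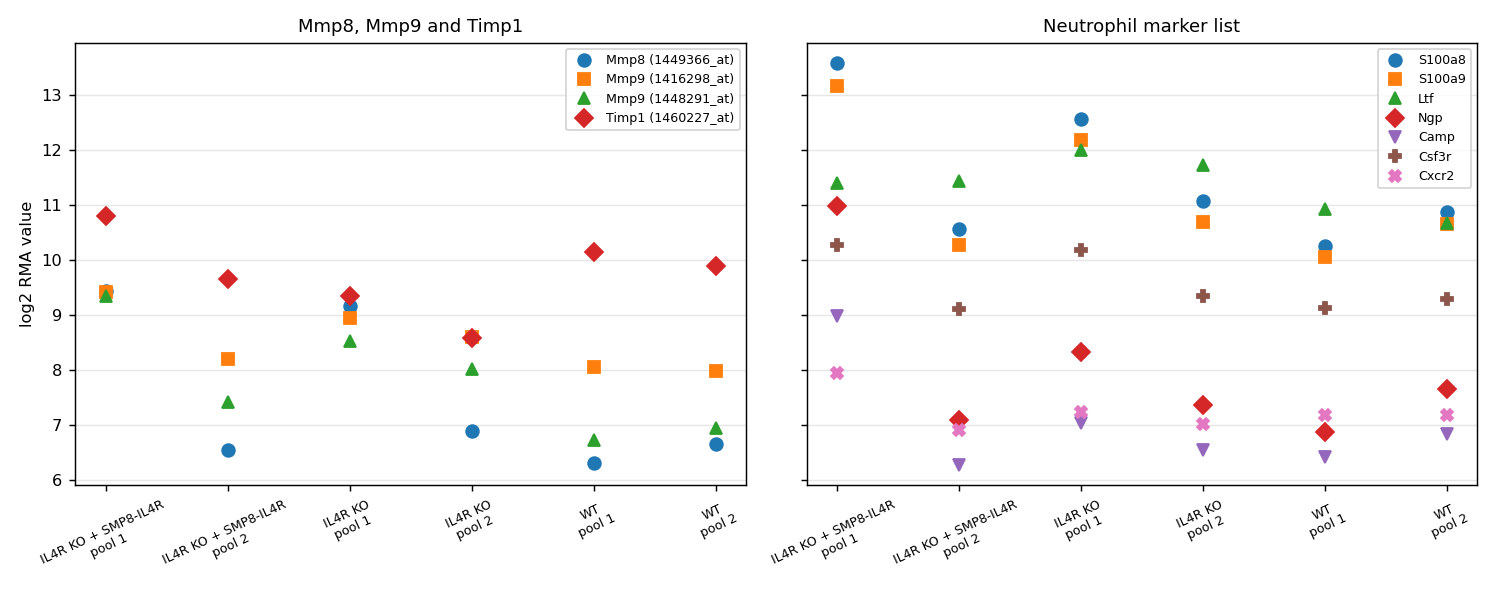
Log2 RMA values by pool of Mmp8, both Mmp9 probe sets and Timp1 on the left, and of 7 neutrophil markers on the right. IL4R KO + SMP8-IL4R pool 1 is the highest array for Mmp8, Mmp9 and Timp1, and for 6 of the 7 markers, with Ltf highest in IL4R KO pool 1.

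Mmp19, a basement membrane protease found in macrophages and smooth muscle among other cells, fell in both probe sets. The brighter was 7.53 and 7.31 in IL4R KO + SMP8-IL4R, 7.66 and 7.14 in IL4R KO, and 8.48 and 8.65 in WT. The dimmer was 7.31 and 7.10 in IL4R KO + SMP8-IL4R, 7.50 and 7.31 in IL4R KO, and 8.07 and 8.16 in WT. Both WT pools were above all other pools. The differences in IL4R KO against WT were -1.16 ± 0.17 (adjusted p = 0.0321) and -0.72 ± 0.11 (adjusted p = 0.0324). Transgenic against WT, they were -1.14 ± 0.17 (adjusted p = 0.0415) and -0.91 ± 0.11 (adjusted p = 0.0162). Between IL4R KO + SMP8-IL4R and IL4R KO, the differences were 0.02 and -0.20. The calls in the first comparison were lost without either WT pool (-1.25 to -0.67) and when either transgenic pool was left out of the shared spread, and the dimmer probe set was also lost without IL4R KO pool 2 (-0.62, adjusted p = 0.0521). Those in the second were lost when any 1 of the transgenic or WT pools was left out (-1.25 to -0.81). Without both arrays with liver transcripts, the dimmer probe set gave -0.76 in IL4R KO (adjusted p = 0.0868) and -0.87 in the transgenic lungs (adjusted p = 0.0556), against WT.

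Membrane-type MMPs, some of which activate proMMP2 and cut collagen at the cell surface, and the remaining MMPs had no passing probe set. The 11 membrane-type probe sets of 4 genes ranged from -0.22 to 0.08 in IL4R KO against WT. Mmp14 was 10.07 and 10.02 in IL4R KO + SMP8-IL4R, 9.71 and 9.97 in IL4R KO, and 9.84 and 9.90 in WT. Mmp17 was 7.18 and 7.24 in IL4R KO + SMP8-IL4R, 6.98 and 6.93 in IL4R KO, and 7.04 and 7.31 in WT, and its difference between IL4R KO + SMP8-IL4R and IL4R KO, 0.25, did not pass (adjusted p = 0.429). Mmp24 stayed between 7.25 and 7.47 on all arrays by the brightest of its 3 probe sets. The 3 differed by -0.34 to -0.15 between IL4R KO + SMP8-IL4R and WT. Stromelysin-like Mmp11 was 9.04 and 8.96 in IL4R KO + SMP8-IL4R, 8.67 and 9.33 in IL4R KO, and 8.96 and 9.01 in WT, so the IL4R KO pools span both other groups. Mmp23 was 8.82 and 8.83 in IL4R KO + SMP8-IL4R, 8.95 and 9.03 in IL4R KO, and 9.13 and 9.05 in WT.

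None of the 13 TIMP probe sets passed. Timp1, the TIMP most often induced in inflamed and fibrotic lung, was 10.80 and 9.65 in IL4R KO + SMP8-IL4R, 9.35 and 8.57 in IL4R KO, and 10.14 and 9.89 in WT. Both IL4R KO pools were below the other 4 arrays. The differences were -1.05 ± 0.39 in IL4R KO against WT (adjusted p = 0.262) and 1.27 ± 0.39 in IL4R KO + SMP8-IL4R against IL4R KO (95% interval 0.34 to 2.20, adjusted p = 0.354). IL4R KO + SMP8-IL4R pool 1 was the highest array for Timp1 and for the neutrophil markers other than Ltf. IL4R KO pool 1, with the next highest summed neutrophil signal (16560), had Timp1 of 9.35. That was below both WT pools, whose neutrophil sums were 5133 and 6202. The part of neutrophils in the Timp1 values was not tested.

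Timp3, the matrix-bound TIMP that also blocks ADAM17, had 4 probe sets, all higher in IL4R KO than in WT by 0.09 to 0.34 and all lower in IL4R KO + SMP8-IL4R than in IL4R KO (differences -0.37 to -0.12). The brightest was 12.56 and 12.55 in IL4R KO + SMP8-IL4R, 12.77 and 12.58 in IL4R KO, and 12.58 and 12.58 in WT. The probe set with the lowest p was 10.92 and 11.00 in IL4R KO + SMP8-IL4R, 11.40 and 11.26 in IL4R KO, and 10.99 and 11.09 in WT. Its difference of -0.37 between IL4R KO + SMP8-IL4R and IL4R KO had an adjusted p of 0.303 in limma. Timp2, a TIMP that also helps activate proMMP2, differed by -0.04 to 0.09 between IL4R KO and WT over 6 probe sets, and its brightest lay between 12.72 and 12.86 on all arrays. Timp4 was 6.84 and 6.91 in IL4R KO + SMP8-IL4R, 7.28 and 6.80 in IL4R KO, and 7.26 and 7.27 in WT, with a difference of -0.22 between IL4R KO and WT that did not pass.

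Of 21 probe sets of the 9 ADAMs with a known sheddase or catalytic role, 3 passed, all lower in IL4R KO than in WT. Over all probe sets, 0.999% passed as lower in that comparison. Adam8, a sheddase of granulocytes and macrophages, was 8.90 and 8.66 in IL4R KO + SMP8-IL4R, 8.88 and 8.36 in IL4R KO, and 9.68 and 9.77 in WT. Adam9, a broadly expressed sheddase, was 11.59 and 11.53 in IL4R KO + SMP8-IL4R, 11.48 and 11.38 in IL4R KO, and 11.98 and 11.98 in WT. Adam10, the sheddase of Notch receptors, E-cadherin and the low-affinity IgE receptor, was 11.32 and 11.39 in IL4R KO + SMP8-IL4R, 11.13 and 11.14 in IL4R KO, and 11.59 and 11.55 in WT. WT pools were the highest in all 3, and the transgenic and IL4R KO pools overlapped only for Adam8. The differences in IL4R KO against WT were -1.10 ± 0.17 for Adam8 (2.15-fold lower, adjusted p = 0.0371), -0.55 ± 0.08 for Adam9 (adjusted p = 0.0251) and -0.44 ± 0.07 for Adam10 (adjusted p = 0.0442). Transgenic against WT, the same probe sets gave -0.95 (adjusted p = 0.0729), -0.42 (0.0701) and -0.21 (0.249), so none passed there. Those of Adam9 and Adam8 passed in 6 and 4 of 14 alternatives, with adjusted p down to 0.0134 and 0.0127, among them the fits without either IL4R KO pool, which leave these differences as they are. Differences between IL4R KO + SMP8-IL4R and IL4R KO were 0.16, 0.13 and 0.23, and none passed. For Adam8, as for Mmp12 and Mmp9, the part of the macrophage and neutrophil markers given with those genes was not tested.

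The other 3 Adam10 probe sets also read lower in IL4R KO than in WT (differences -0.55 to -0.29), and none of them passed. The calls for Adam8 and Adam9 were lost without either WT pool (-1.15 and -1.06 for Adam8, -0.55 each time for Adam9). They were also lost when either transgenic pool was left out, which changes the spread but not the difference. The Adam10 call was lost in 10 of 14 alternatives, each left-out pool among them (-0.46 to -0.42). Without both arrays with liver transcripts, the Adam9 difference was -0.60 and did not pass (adjusted p = 0.0811), and 6 and 3 of the 129 probe sets passed in IL4R KO and transgenic lungs against WT, where 8 and 4 did with all arrays. Adam17, which releases TNF and EGF receptor ligands, was 9.70 and 9.53 in IL4R KO + SMP8-IL4R, 9.51 and 9.56 in IL4R KO, and 9.61 and 9.72 in WT. Its 3 probe sets differed by -0.17 to -0.11 between IL4R KO and WT. Adam33, first known as an asthma susceptibility gene in human and expressed in airway mesenchyme, was 7.71 and 7.74 in IL4R KO + SMP8-IL4R, 7.42 and 7.57 in IL4R KO, and 7.72 and 7.67 in WT. Its IL4R KO pools were the lowest, and the difference of 0.23 between IL4R KO + SMP8-IL4R and IL4R KO did not pass (adjusted p = 0.391). Adam15, whose protein binds integrins, lay between 10.46 and 10.70 on all arrays by the brightest of its 4 probe sets. The 4 differed by -0.23 to -0.15 between IL4R KO + SMP8-IL4R and WT. Adhesion ADAMs differed by -0.26 to 0.25 over 7 probe sets, with Adam22, a neuronal receptor, at 8.20 to 8.52, Adam23 at 7.36 to 7.65 and Adam11 at 7.04 to 7.33. The 18 probe sets of 16 testis ADAMs, among them Adam4, Adam21 and Adam1a, differed by -0.18 to 0.30, with means from 2.85 to 7.66, and 4 of 6 testis germ cell markers were below the lower quartile on all arrays.

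Adamts12, which cuts the cartilage protein COMP and other matrix proteins, was the ADAMTS member that passed. Its values were 6.84 and 6.95 in IL4R KO + SMP8-IL4R, 6.18 and 6.16 in IL4R KO, and 7.09 and 7.26 in WT. The 3 groups did not overlap, and the transgenic lungs lay between the others. Adamts12 fell by 1.00 ± 0.09 in IL4R KO against WT (2.00-fold lower, adjusted p = 0.00456), a call lost without WT pool 2 (-0.91, adjusted p = 0.0544). It was 0.73 higher in IL4R KO + SMP8-IL4R than in IL4R KO (95% interval 0.51 to 0.94, unadjusted p = 0.000110), the lowest p of the family in that comparison, but its adjusted p in limma was 0.136. Against WT, the transgenic lungs differed by -0.28 (adjusted p = 0.230). The mean level lay below the median of all values, and a second, dimmer probe set differed by 0.07 between IL4R KO and WT. The summed signal of smooth muscle markers was also lowest in IL4R KO: it was 27620 and 28490 in IL4R KO + SMP8-IL4R, 17880 and 18640 in IL4R KO, and 24650 and 24590 in WT. Of 7 such markers, 4 were lower in IL4R KO than in WT and 1, Actg2, was higher in IL4R KO + SMP8-IL4R than in IL4R KO. Their part in the Adamts12 values was not tested.

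The 13 probe sets of 7 ADAMTS proteoglycanases, among them Adamts1, Adamts9 and Adamts15, ranged from -0.35 to 0.20 in IL4R KO against WT, and 0 passed. Over all arrays, the brightest probe sets of Adamts1, Adamts9 and Adamts15 lay at 10.07 to 10.45, 9.71 to 10.37 and 8.88 to 9.33. The second brightest Adamts9 probe set was decided by a single pool: it was 9.03 and 8.94 in IL4R KO + SMP8-IL4R, 9.07 and 7.85 in IL4R KO, and 8.81 and 8.82 in WT. Without IL4R KO pool 1 it was 1.14 higher in IL4R KO + SMP8-IL4R than in IL4R KO and passed (adjusted p = 0.0329), and without IL4R KO pool 2 the difference was -0.083. Adamts8 was 8.93 and 9.04 in IL4R KO + SMP8-IL4R, 9.04 and 8.79 in IL4R KO, and 9.21 and 9.26 in WT and did not pass. Of the ADAMTS-like genes, which lack a protease domain, 8 probe sets of 5 genes ranged from -0.21 to 0.31, and none passed. Adamtsl4 and Adamtsl2, both linked to fibrillin microfibrils, lay at 10.34 to 10.66 and 10.13 to 10.47, and Adamtsl3 at 8.42 to 8.61. Adamts10, which also acts on microfibrils, lay at 10.62 to 10.97, Adamts16 at 6.71 to 7.08, and the procollagen protease Adamts3 at 6.19 to 6.55.

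Genes that act with these proteases were read from 5 lists, each gene by its brightest probe set. Over all probe sets, 0.577% passed as higher and 0.999% as lower in IL4R KO against WT. Of 9 activators and cofactors, 1 fell and 1 rose in IL4R KO against WT. Proprotein convertase Pcsk5 was 9.43 and 9.47 in IL4R KO + SMP8-IL4R, 9.14 and 9.21 in IL4R KO, and 10.17 and 10.19 in WT (2.00-fold lower in IL4R KO than in WT, limma adjusted p = 0.002). Pcsk6 was higher by 0.49. Of 4 measured genes among 6 inhibitors and clearance receptors, Tfpi2, an inhibitor of plasmin and of some MMPs, fell by 2.00, with 8.04 and 7.25 in IL4R KO + SMP8-IL4R, 6.97 and 6.99 in IL4R KO, and 8.86 and 9.09 in WT. Of 11 matrix substrates, 3 fell (Col1a1, Col3a1 and Fn1, by 0.65, 0.63 and 0.65) and none rose. None of 8 ADAM10 and ADAM17 regulators or of 12 measured substrates of 14 passed, and no partner passed between IL4R KO + SMP8-IL4R and IL4R KO. Against WT, transgenic Pcsk5 and Col1a1 were lower (differences -0.73 and -0.48).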

How the data were processed

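Whole lung RNA of 6 pools, 2 per genotype, was measured on Affymetrix mouse 430 2.0 arrays. Deposited values are on the log2 scale and come from RMA (background correction, quantile normalization and summary per probe set), per the submitters' processing notes. No version of it is given in the sources used here. RMA compresses dim signals, and the table holds no detection calls, so a probe set's place among all values stood in for signal over background. Arrays have no read depth, so precision depends on how many there are.

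The table has 45101 rows, 64 of them array controls that were not tested. Of the other 45037, 34945 carried 1 platform gene, 932 several and 9160 none, and all 124 family probe sets with 1 gene matched the RefSeq table (GRCm38.p6) by Entrez identifier, with 0 symbols changed. Those with an x_at or s_at suffix may also bind related transcripts.

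The 3 group means were fitted in limma 3.58.1 (R 4.3.3) over all 45037 probe sets with no filter, so that every family probe set was tested, with 1 spread shared by the 3 groups (3 residual and 3.724 prior degrees of freedom) and Benjamini-Hochberg adjustment. A difference is the group named ahead minus the one named after it, and its error is the moderated SE. The p-values measure the spread between pools of 4 mice. Sums of marker signals are sums of linear values over the markers of a list, with the brightest probe set of each gene. Values of a family gene with several probe sets are those of its brightest one, unless another is named.

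Every passing family probe set was named. Also named were each Timp gene, each Mmp gene with a probe set above the median of all values, up to 3 genes by mean level in every other role, and up to 3 by lowest p. Partner genes were named if they passed. The family and all lists were chosen with earlier results of these data known. In data simulated for IL4R KO against WT over 45037 probe sets, the test recovered 17.6% of changes of 0.5 on the log2 scale, 71.8% of 1, 94% of 2 and 99.6% of 4, with 2.86% false calls. The simulation changed 200 probe sets and drew independent normal noise, with the same spread in all groups. In the real arrays the spread between pools was uneven, and liver, sex-linked and neutrophil transcripts shifted together. The rates therefore need not hold for the real comparison. Alternatives covered filters on dim probe sets, 1 probe set per gene, the variance prior, the groups in the fit, median centring, arrays with liver transcripts, the replicate block and each array left out. Replicate numbers came from the labels.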

Additional observations from a re-analysis of the deposited data

How the results depend on the processing

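Counts of passing family probe sets changed most with the spread that was shared and with the arrays left out. In IL4R KO against WT the count was 8, and 3 when only these 2 groups were fitted, with 322 of all probe sets passing where 710 did. Leaving out 1 array at a time gave 1 to 8. In IL4R KO + SMP8-IL4R against WT it was 4, and 8 with an intensity trend and robust prior (732 of all probe sets, against 470), and 1 to 6 with arrays left out. In IL4R KO + SMP8-IL4R against IL4R KO it was 0, and 0 to 1 with arrays left out. That pass was the second brightest Adamts9 probe set with pool 1 of IL4R KO left out (1.14, and -0.96 in IL4R KO against WT). Leaving out pool 2 turned its direction, to -0.083 and 0.26. With the replicate block the counts were 7, 0 and 4 in IL4R KO against WT, transgenic against IL4R KO and transgenic against WT; Adam10 lost its call (adjusted p = 0.0768). Replicate numbers were not stated to pair samples. Pool 1 minus pool 2 differences over all probe sets correlated by 0.053 between IL4R KO + SMP8-IL4R and IL4R KO. They correlated by -0.067 between IL4R KO + SMP8-IL4R and WT, and by -0.346 between IL4R KO and WT. Liver transcripts in IL4R KO pool 1 and WT pool 2 enter these values, which cannot tell whether pools of the same number share a batch. Neutrophil markers were high in pool 1 of both il4r -/- groups. In the same order, median centring gave 7, 0 and 4, the filters on mean level 8, 0 and 4 to 5, 1 probe set per gene 6, 0 and 5, and the trend and robust prior 10, 0 and 8. Fitting only the groups compared gave 3, 0 and 6. Counts over all probe sets were 1075, 31 and 732 with the trend and robust prior and 322, 0 and 1064 with only the groups compared, against 710, 7 and 470. For the middle comparison they were 12 with 1 probe set per gene or above the median, and 16 with the block. The cause of these changes was not tested. With 2 pools per group, the number of arrays limits what can be told of any probe set.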
